A study of Mus musculus with 2 samples.

Results

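The major urinary proteins of the mouse were examined in liver through every probe set whose annotated symbol names a gene starting with Mup and a digit. Of 22690 probe sets on the array, 3 met this rule. Mup3 was named by 2 probe sets and Mup5 by 1, and 0 of the 3 named several genes. The RefSeq gene table of GRCm38.p6 lists 22 protein-coding genes with such a symbol, so 20 Mup genes had no probe set named here and were not analysed. A further 1606 of the probe sets, controls included, were unnamed here.

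The samples were 2 arrays of liver RNA, 1 per diet, from female mice of 2 months of age, homozygous for a knockout of the apolipoprotein E gene (apoE KO) on the C57BL/6J background. One group ate chow with 10% (w/w) olive oil, and in the other the same share of oil was enriched in maslinic acid, a triterpene of the olive fruit; both diets ran for 4 weeks. Both groups are labelled with the knockout, which the Apoe signal of the array labelled maslinic acid goes against, and no array is labelled wild-type. The study had 12 mice, 6 per diet, and whether an array held RNA of 1 mouse or of several is not stated in the sources. With 1 array per diet there are no replicates, so each difference is a size with no test, SD or p-value.

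Major urinary proteins are small lipocalins, barrel-shaped carriers of volatile ligands, that the liver secretes into the blood and the kidney passes into the urine, where they act in scent signalling. Their genes are closely related copies in a single cluster. In liver they are transcribed far more in males than in females, under pulsatile growth hormone acting through the receptor Ghr and the factor Stat5b, and some members are made in exocrine glands instead. In bulk liver RNA, fewer hepatocytes and less Mup RNA per hepatocyte cannot be told apart.

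Signals are MAS5 intensities on the deposited scale. A signal under a floor of 40.0 was treated as not distinguishable from background, and a probe set was called measured where it reached 80.0 on at least 1 array. The arrays are called olive-labelled and maslinic-labelled after their diets, and each log2 ratio has the olive-labelled signal as its denominator.

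Mup3 and Mup5 lie near one end of the cluster on chromosome 4. In the order of protein-coding genes, Mup5 follows 18 other Mup genes, 1 gene (Mup20) lies between Mup5 and Mup3, and Mup21 comes next. The region before the annotated start is given to show how alike the copies are there. It lies outside the transcript, so it does not show what a probe reads. RefSeq promoters were held for 14 of the 22 genes, Mup3 among them and Mup5 not. Over the 250 bases before the start, the Mup3 sequence aligned to the 13 others with 74.4% (Mup2) to 92.7% (Mup21) identity, over 170 to 252 aligned columns. Mup4 gave 87.5%. The 120 bases just before the annotated start (GRCm38.p6, minus strand) are given for Mup3 at chr4:62087318-62087437, for its neighbour Mup21 at chr4:62150842-62150961, for Mup4, the first gene of the cluster, at chr4:59960668-59960787, and for Mup2, the least similar, at chr4:60139857-60139976. Capitals mark TATATAA.
Mup3: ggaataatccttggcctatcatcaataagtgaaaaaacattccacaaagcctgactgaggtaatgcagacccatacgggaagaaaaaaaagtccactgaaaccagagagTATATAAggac
Mup21: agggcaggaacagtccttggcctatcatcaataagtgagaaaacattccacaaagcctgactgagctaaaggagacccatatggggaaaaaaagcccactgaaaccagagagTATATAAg
Mup4: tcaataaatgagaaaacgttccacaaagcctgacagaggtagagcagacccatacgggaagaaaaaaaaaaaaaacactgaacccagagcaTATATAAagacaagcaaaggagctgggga
Mup2: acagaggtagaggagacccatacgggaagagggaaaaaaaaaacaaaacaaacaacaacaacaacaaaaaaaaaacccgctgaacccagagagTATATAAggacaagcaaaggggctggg

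The TATATAA run began 11 bases before the annotated start of Mup3 and 8 bases before that of Mup21, against 25 to 31 bases in 9 other Mup genes. It was thus found in 11 of the 14 Mup promoters, and in 3.04% of all 32851 RefSeq promoter windows of the same length, on either strand. Its letters were chosen after the sequences were read. Both its distance and its presence in a window depend on where the start of a gene is annotated. The shorter TATAA, which TATATAA contains, was in the same number of Mup promoters (11 of 14) and in 22.8% of all windows. CCAAT was in 6 Mup promoters, Mup3 not among them, and in 33.8% of all windows. The STAT pair TTCNNNGAA, the glucocorticoid receptor pair ACANNNTGT and the C/EBP core TTGCNNAA were each in 0 of the 14 windows, against 7.02%, 5.84% and 9.56% of all windows, both strands searched. These are matches of letters in a short window only. The Mup windows are related copies, so their counts are not independent observations to set against the shares of all windows.

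Mup3 gave one of the brightest signals on both arrays. Its bright probe set, 1427631_x_at, had a signal of 6079 on the olive-labelled array and 5127 on the maslinic-labelled array. It ranked 159 and 204 of 22690, within the brightest 0.701% and 0.899% of probe sets. Ranks order the arrays' signals, which also depend on each probe's own brightness, and are not an order of transcript levels. The signal was lower on the maslinic-labelled array by a log2 ratio of -0.25, or 1.19-fold.

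The probe set named for Mup5, a member described from exocrine glands, gave an intermediate signal in liver. This probe set, 1426166_at, read 169.5 and 163.5 on the olive-labelled and maslinic-labelled arrays, ranks 5961 and 6110. The log2 ratio was -0.05, which is 1.04-fold lower on the maslinic-labelled array. Both signals lay above the floor and the minimum. Whether they come from Mup5 or from other Mup copies was not tested.

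The other Mup3 probe set, 1427249_x_at, was under the floor on both arrays, with signals of 4.0 and 1.4 and ranks of 18833 and 20879. It gives no ratio. The bright and the dim Mup3 probe set therefore disagree on whether the gene is read at all, although both carry the name Mup3 alone. A suffix of _x_at marks a probe set whose probes can also bind other transcripts, and both have it. Without probe sequences the share of the bright signal that comes from Mup3 rather than from other Mup copies was not tested.

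**Figure D1:**
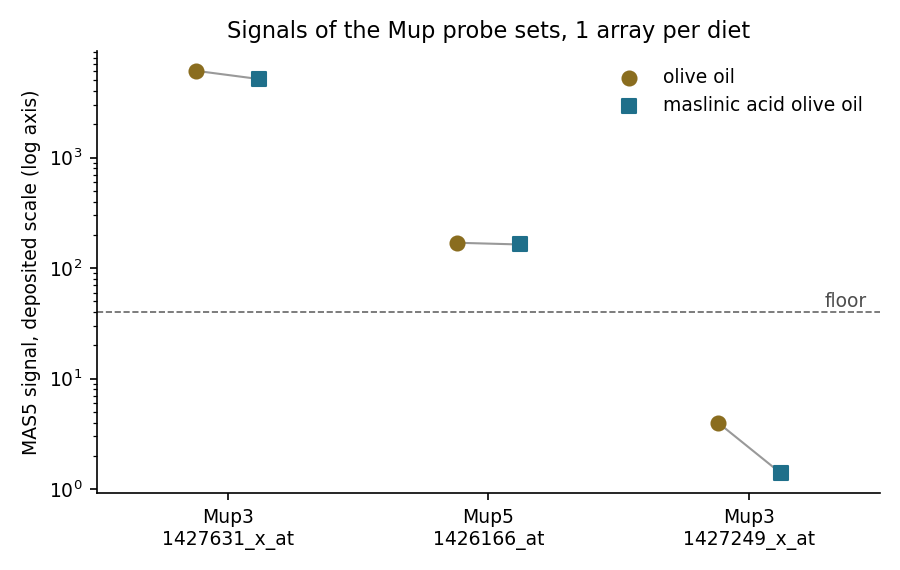
MAS5 signal on a log axis of the 3 Mup probe sets on the olive-labelled array (circles) and the maslinic-labelled array (squares), with the floor of 40.0 as a dashed line. The bright Mup3 probe set reads 6079 and 5127, Mup5 169.5 and 163.5, and the other Mup3 probe set 4.0 and 1.4, below the floor; each point is 1 array.

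Other bright genes also had a probe set under the floor. Of 4956 genes named alone by at least 2 probe sets, 43 had a probe set as bright as that of Mup3 or brighter (mean of the 2 arrays at least 5603), Mup3 included. In 7 of these 43, Mup3 again included, the dimmest probe set lay under the floor. Signals of different probe sets depend on the probes as well as on the transcript, and signals under the floor have no order.

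**Figure D2:**
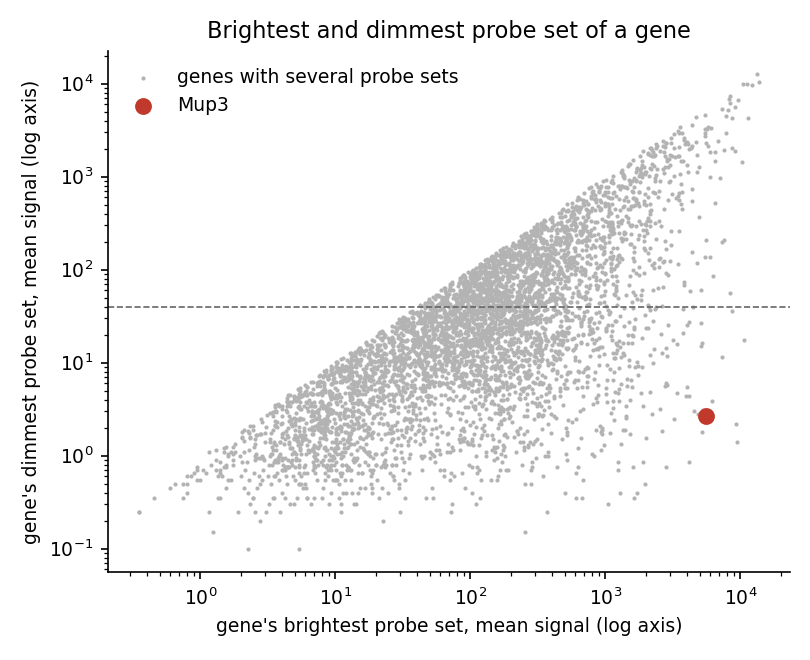
Mean signal over the 2 arrays of the brightest (horizontal, log axis) and the dimmest (vertical, log axis) probe set of each of 4956 genes with several probe sets, with the floor as a dashed line. Mup3, in red, lies at 5603 and 2.7, with its dimmest probe set under the floor. It is among the 7 such genes of the 43 at least as bright, itself included.

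Both measured Mup probe sets were lower on the maslinic-labelled array, by small amounts. Of all 9323 measured probe sets, 50.7% were lower on that array and 49.3% higher, and 2 members are too few to set a share against these. The median over the 2 was -0.15, against -0.0037 over all measured probe sets. Neither reached 1.5-fold in either direction, a size passed by 1.78% of measured probe sets upward and 1.87% downward. The shares at 2-fold were 0.386% and 0.322%. A log2 ratio lower than that of Mup3 was found in 11.4% of measured probe sets, and one lower than that of Mup5 in 39.5%. Between measured probe sets of the same gene the SD of the log2 ratio was 0.23 (1814 genes), and the Mup3 difference was 1.06 times this SD. It pools probe sets of every measured brightness and is a spread between probe sets, so it does not measure noise between arrays.

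Bright probe sets as a whole read lower on the maslinic-labelled array. Of 152 probe sets brighter than that of Mup3 on both arrays, 135 were lower there, with a median log2 ratio of -0.12 and quartiles of -0.17 and -0.05. The -0.25 of Mup3 lay outside these quartiles, and 7 of the 152 had a lower ratio. After a loess trend of the ratio on signal was removed, which amounted to -0.07 at the signal of Mup3, the ratio of Mup3 was -0.18.

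**Figure D3:**
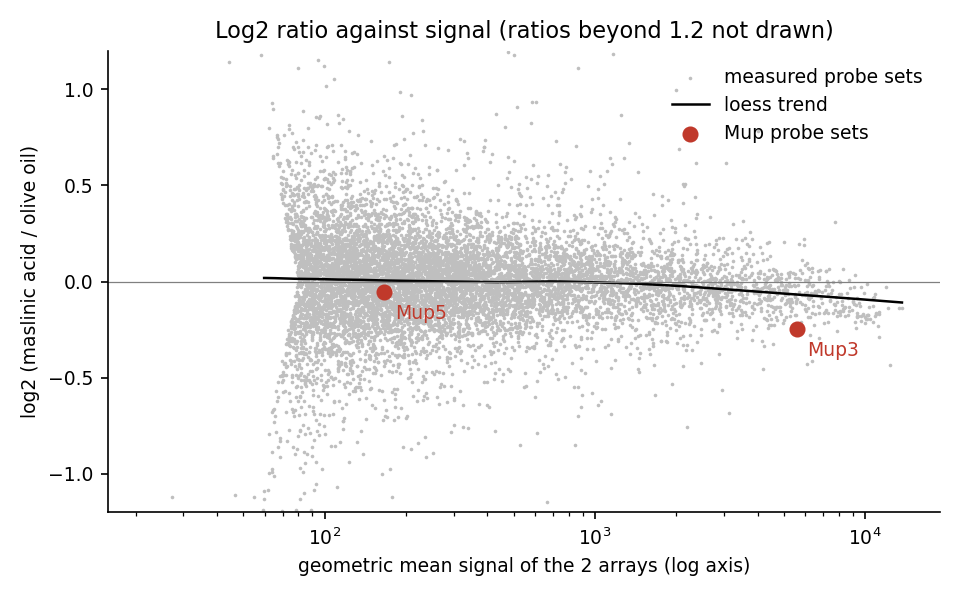
Log2 ratio of maslinic acid over olive oil against the geometric mean signal of the 2 arrays (log axis) for 9288 measured probe sets, with the 35 beyond 1.2 in either direction not drawn. The loess trend (black) falls at high signal; Mup3 (-0.25) and Mup5 (-0.05), in red, lie below it.

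The 6 measured genes nearest the cluster ranged more widely than the 2 measured Mup probe sets, a comparison of unequal numbers. On the Mup4 side, Hsdl2 had a log2 ratio of -0.10, Ptbp3 of -0.03 and Ugcg, which encodes glucosylceramide synthase, of -0.76. Beyond Mup21, the copper transporter genes Slc31a2 and Slc31a1 had -0.16 and 0.06, and Fkbp15 between them 0.43. These 6 neighbours are the 3 nearest measured genes on each side, a rule set after the values were seen. The neighbours with the widest ratios were dim, Ugcg at 112.9 and 66.7 and Fkbp15 at 122.8 and 165.1, and dim signals are the noisier ones.

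**Figure D4:**
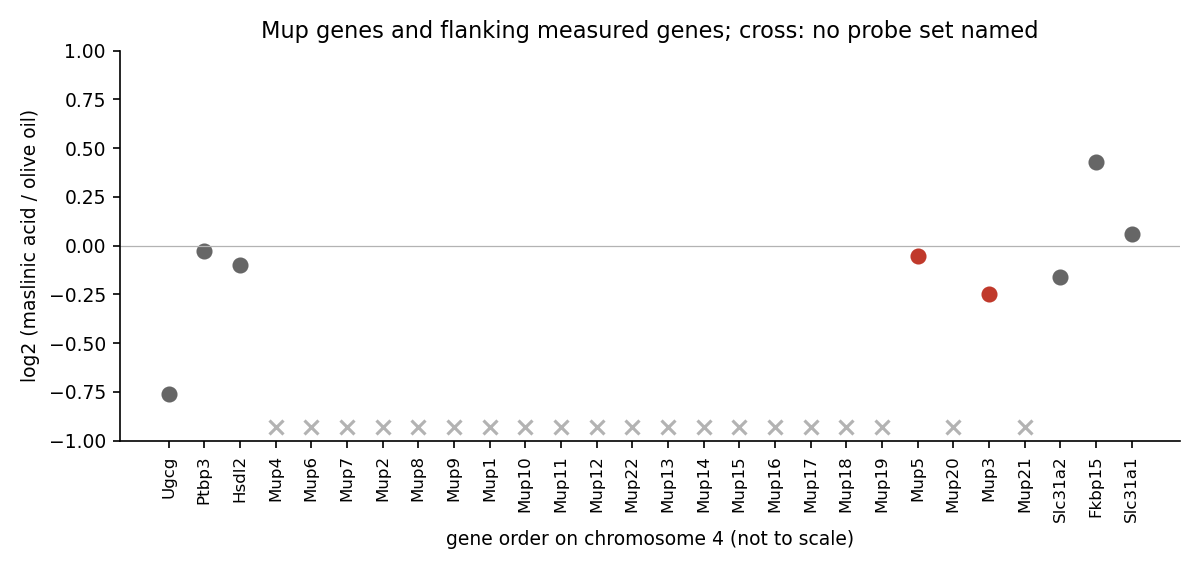
Log2 ratio of maslinic acid over olive oil for Mup5 and Mup3 (red) and the 3 nearest measured genes on each side (grey), in gene order along chromosome 4 and not to scale. Crosses mark the 20 Mup genes with no probe set named here and stand for no value; the 6 neighbours run from -0.76 to 0.43.

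Among other lipocalins, 8 of 15 genes on the array were measured, with 3 higher and 5 lower and a median log2 ratio of -0.11, against -0.0098 over all 5911 measured genes, of which 52% were lower and 48% higher. Lcn2, which binds bacterial siderophores, read 330.8 and 523.0, 1.58-fold higher on the maslinic-labelled array and the only one of these 8 past 1.5-fold. At that size 1.47% of measured genes were higher and 1.57% lower. Orm2, an acute phase orosomucoid, read 351.0 and 283.2, a log2 ratio of -0.31. Ptgds, a prostaglandin synthase of the lipocalin fold, had 0.30. The odorant-binding gene Obp1a lay under the floor on both arrays.

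Abundant secreted proteins of the hepatocyte, the class to which the liver Mups belong, were lower in 27 of 30 measured genes and higher in 3, with a median of -0.14. Beside this, 52% of all measured genes were lower, as were 88.8% of the 152 probe sets brighter than that of Mup3. None of the 30 reached 1.5-fold, against 1.47% higher and 1.57% lower over all measured genes. Apob, the structural protein of large lipoproteins, had a log2 ratio of -0.29, the thyroxine carrier Ttr of -0.23 and albumin, Alb, of -0.21. These 3 had the largest absolute ratios of the list. The -0.25 of Mup3 lay between Apob and Ttr, near the low end of the list's range of -0.29 to 0.11. With quantile scaling the list's median was -0.0096 and the Mup3 ratio -0.19, and with the loess trend removed they were -0.05 and -0.18.

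Genes of growth hormone signalling, which drives the liver Mups, showed 5 higher and 10 lower among 15 measured members of 18, with a median of -0.12 and 0 past 1.5-fold. Over all measured genes 52% were lower, and 1.47% were higher and 1.57% lower by at least 1.5-fold. With the mean of a gene's measured probe sets the list's median was -0.05. Ghr, the receptor, read 3706 and 3285, a log2 ratio of -0.17, while its other measured probe sets gave -0.12 and 0.13. Stat5b read 184.4 and 190.8, a ratio of 0.05. Its paralog Stat5a had -0.45 at signals of 92.5 and 67.5, the repressor Bcl6 -0.42 and Stat3 -0.28. The receptor's feedback inhibitors Socs2 and Cish, named outside the rule, had -0.27 and -0.11, and the hormone's target Igf1 0.15. The direction was thus mixed along the pathway.

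Of the liver transcription factors and hormone receptors, 9 were higher and 11 lower among 20 measured, with a median of -0.07, which was 0.0040 with a minimum signal of 400. Over all measured genes 52% were lower and 48% higher. Dbp, a clock-driven factor, was 3.47-fold and Tox 2.16-fold higher on the maslinic-labelled array, both from dim signals on the other array (61.7 and 54.2). Foxa3, a hepatocyte forkhead factor, had -0.42. Hnf4a, a main regulator of hepatocyte genes, read 2406 and 2062, a ratio of -0.22, but its other measured probe sets gave 0.64 and -0.05. The glucocorticoid receptor gene Nr3c1 had 0.0040 and 0.29 with its 2 measured probe sets. Zhx2 is unnamed here.

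Genes responding to glucocorticoids, another hormonal input of the Mup genes, were 6 higher and 10 lower of 16, with 3 past 1.5-fold each way, against 1.47% higher and 1.57% lower over all measured genes, and a median of -0.14. That median was -0.06 with the mean of a gene's measured probe sets. The share of all measured genes that were lower was 52%. The metallothionein gene Mt2 was 2.16-fold higher, Zbtb16 1.69-fold higher and Gadd45g 2.32-fold lower on the maslinic-labelled array.

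Because Mup transcription is male-biased, the sex-biased genes were set beside it. Over all measured genes 52% were lower and 48% higher. Of 17 male-biased genes other than Mup on the array, 11 were measured, with 4 higher and 7 lower, 0 past 1.5-fold and a median of -0.04. Among them Ces2e, a carboxylesterase, had 0.44, Nudt7 -0.28 and the complement gene C6 -0.24. The strongly male-biased Cyp4a12a and Hsd3b5, named outside the rule, were under the floor on both arrays (1.2 and 1.1, and 1.5 and 3.0). Female-biased genes were 13 higher and 3 lower among 16 measured, with 6 higher and 1 lower past 1.5-fold (1.47% and 1.57% over all measured genes) and a median of 0.31. They were led by the cytochrome P450 genes Cyp2b9 and Cyp2b13, at least 16.5-fold and at least 6.30-fold higher on the maslinic-labelled array, and Cyp3a16, 2.77-fold higher. The values of Mup3 and Mup5 lay within the range of both lists, -0.28 to 0.44 for male-biased and -0.79 to 4.04 for female-biased genes.

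**Figure D5:**
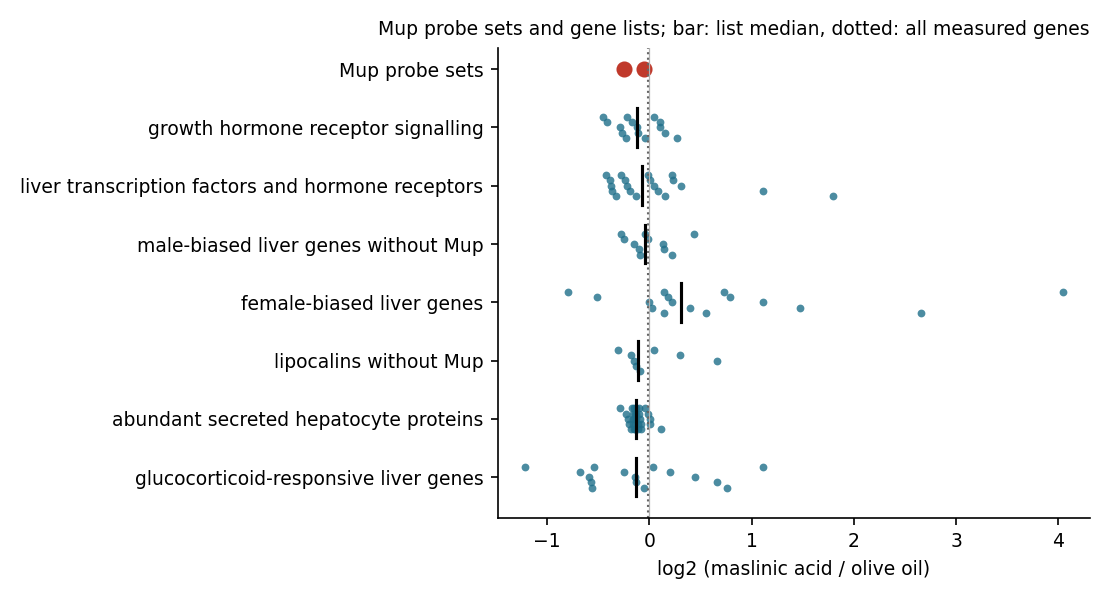
Log2 ratio of maslinic acid over olive oil for the 2 measured Mup probe sets (red) and the measured genes of 7 lists (blue), 1 point per gene, with list medians as black bars and the median of all measured genes as a dotted line. The Mup points lie at -0.25 and -0.05; list medians run from -0.14 (secreted hepatocyte proteins and glucocorticoid-responsive genes) to 0.31 (female-biased genes).

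Markers of cell types and the labels were checked on the same arrays. All 10 hepatocyte markers on the array were measured and lower on the maslinic-labelled array, with a median of -0.16 and summed signals of 86595 and 76128 on the olive-labelled and maslinic-labelled arrays. Beside this, 52% of all measured genes were lower, as were 88.8% of the 152 probe sets brighter than that of Mup3. Of the hepatocyte markers, Alb, Ttr, Apoa1 and F2 were also counted among the secreted proteins, and Tat and Tdo2 among the glucocorticoid-responsive genes. The part of the hepatocyte markers in the Mup3 difference was not tested. Of the 10 salivary and lacrimal gland markers, 9 were under the floor on both arrays, Aqp5, Lpo and Pip among them. The exception, Amy1, which liver also transcribes, read 2233 and 2363. Cela1, at 334.3 and 229.8, was the only measured one of 9 exocrine pancreas markers. Endothelial markers were lower in 6 of 6 measured genes (median -0.14), stellate and matrix markers higher in 5 of 7 (0.21) and macrophage markers higher in 5 of 9 (0.03). The macrophage marker Marco read 338.1 on the olive-labelled array and 84.6 on the maslinic-labelled array. It was the only one of these 9 macrophage markers past 1.5-fold in either direction. Ighm, at 1.54, was the only measured lymphocyte marker, Fabp4, at 0.43, the only adipocyte marker, and 0 cholangiocyte markers were measured. Apoe, the targeted gene, read 407.7 on the olive-labelled array and 7630 on the maslinic-labelled array. The second value goes against the knockout label, and where the probes lie relative to the disruption is not known here, so each direction given here is between arrays as labelled. The 6 probe sets of 3 Y-linked genes read at most 9.2 and the brightest of Xist 2867 and 2136. Actb had ratios of -0.22 and -0.08.

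The genes closest to the Mup probe sets in log2 signal on the 2 arrays were found by Euclidean distance. By the rule, which takes the median over the measured Mup probe sets, they were Ndufb2 (distance 0.035), Ptprf (0.037), Ube2e3 (0.039), Psmd8 (0.040) and Chmp5 (0.042). That median lies between 2 very unequal signals and describes neither. Closest to the bright Mup3 probe set alone, chosen after the values were seen, was a probe set of Itm2b at 6031 and 5061 (distance 0.022), and to Mup5 one of Gak at 170.5 and 163.0 (0.0096). Likeness over 2 arrays is a weak measure, since it rests on only 2 values per probe set.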

How the data were processed

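Liver RNA was hybridised as biotin-labelled cRNA to 1-colour Affymetrix arrays, per the labels' protocols. The deposited values are intensities on a linear scale for which the submitters' processing notes name MAS5 as the authors' tool. Settings used are not stated in these sources. This algorithm scales each array, and the deposited 2% trimmed means were 200.1 on both. Dim signals are the noisier ones in MAS5, and detection calls were not used here. The number of arrays limits the precision.

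Each array was rescaled to a 2% trimmed mean of 500 (factor 2.50), and signals under 100 were set to 100, which is 40.0 on the deposited scale. A probe set was measured at 200 (80.0 deposited) on at least 1 array. Probe sets of 1 gene symbol in the platform annotation numbered 20380 without controls, of several 691, and of none 1606 with controls. In gene lists a gene was read by its brightest probe set. A gene could stand in several lists, as Lcn2, Tox, Rbp4 and Ambp did, so the lists are not separate observations. Fold sizes were 1.5 and 2. The rule for named genes takes the Mup probe sets, up to 3 measured genes per list with the largest absolute ratio, 5 regulators, the 5 nearest genes, and Apoe, Gapdh and Actb; Gapdh is named alone by control probe sets only, which were left out. Promoters and gene order come from RefSeq tables (GRCm38.p6), aligned with Biopython 1.88 (match 1, mismatch -1, gap opening -2, gap extension -0.5, end gaps 0). The loess fit used statsmodels 0.14.6 with a span of 0.3. Steps were tested on simulated data only, and the accuracy of the ratios on these arrays was not tested. Members and lists were chosen with earlier results of these data known.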

Additional observations from a re-analysis of the deposited data

How the results depend on the processing

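The alternatives were the deposited scaling, equal medians, quantile scaling, removal of a loess trend, a floor of 50 or 200 or none, a minimum of 400 or none, other choices of probe sets, and, for lists, a mean over a gene's measured probe sets. The Mup3 log2 ratio ran from -0.25 to -0.18 and that of Mup5 from -0.06 to -0.05, and neither turned in sign. Changes of the floor or minimum could not alter either ratio, since both probe sets lie above all those used. Leaving out probe sets that name several genes could not alter any Mup value, since none of them is a Mup probe set. The Mup median ran from -0.16 to -0.05, and 0 probe sets reached 1.5-fold in any alternative run. Without probe sets ending in _x_at, _s_at or _a_at, 1 Mup probe set was measured and lower (Mup5) in place of 2. Of 165 values, 161 moved by less than the tolerance used. These 165 include values that could not move and fold counts of Mup probe sets that stayed at 0. The tolerance was 0.23 for the ratio of a probe set, 0.1 for a median and 1.5 times for a count. For a probe set this tolerance is wide, near the whole Mup3 ratio and larger than that of Mup5. Within it, the Mup median was -0.05 with no minimum and without those probe sets, that of secreted hepatocyte proteins -0.05 and of glucocorticoid-responsive genes -0.07 with the loess trend removed, that of lipocalins -0.04 with the loess trend removed and with quantile scaling, and that of transcription factors turned to 0.0040 with a minimum of 400. The 4 that moved further include the count of lower Mup probe sets without those suffixes. The median of secreted hepatocyte proteins was -0.0096 with quantile scaling against -0.14. That of female-biased genes was 0.47 with a minimum of 400 against 0.31, and that of lipocalins 0 with no minimum against -0.11. With no minimum, genes under the floor count as 0. A minimum of 400 drops dim members from a list, here Fmo2, Prom1, Tox and Abcd2 from the female-biased genes. The cause of the values with quantile scaling was not tested. No paired analysis was possible because the diets have a single array each, and no array could be left out. Signals under the floor limit what can be said of the dim Mup3 probe set.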
